A study of Mus musculus with 9 samples.

Results

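Psmb8, Psmb10, Tap2 and Tapbp, 4 genes of the immunoproteasome and of the peptide loading of MHC class I, were described in the kidneys of 9 male ICR mice. They were found by gene name among the 489 distinct genes in the 2 deposited tables, and all 4 names matched 1 row each. Psmb8, Psmb10 and Tapbp stood among the 113 genes listed for 3HB against old, and Tap2 stood among the 389 genes listed for young against old. None of the 4 was among the 13 genes in both tables. Young mice were 2 months old (n = 3) and had no treatment, as had the old mice, which had reached 20 months (n = 3). The 3HB mice (n = 3) were also 20 months old and had taken 3-hydroxybutyrate (3HB, a ketone body, as 3HB-Na) at 1 g/L in their water since the age of 11 months. The labels number the mice within each group, so p-values measure the spread between these mice. A gene's value in a mouse is the authors' normalized expression level, given here as deposited. The tables are taken to hold only genes that the authors called as different for the comparison named in each, on these same mice. The rule of listing is not stated. Between the 2 groups compared, values did not overlap for 101 of the 113 genes listed for 3HB and 360 of the 389 listed for age. Each member is therefore treated as already selected on 1 contrast.

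Cells show fragments of their own proteins on MHC class I molecules, where cytotoxic T cells inspect them. The fragments are cut by the proteasome, and interferon-gamma makes cells replace its catalytic subunits by inducible ones, which form the immunoproteasome. Psmb8 and Psmb10 encode such inducible catalytic subunits, Psmb8 in place of the chymotrypsin-like subunit and Psmb10 in place of the trypsin-like one. The fragments then enter the endoplasmic reticulum through a transporter made of Tap1 and Tap2, and tapasin, the product of Tapbp, holds empty class I molecules at that transporter until a peptide fits. In the kidney these genes are known to be active in leukocytes and, under interferon, in tubule and endothelial cells.

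The members lie on 2 chromosomes of the mouse build GRCm38, which the submitters name, by GENCODE release 21. Tapbp (ENSMUSG00000024308) spans positions 33915899 to 33929292 of chromosome 17 on the plus strand, and its principal transcript has 8 exons. Psmb8 (ENSMUSG00000024338) spans positions 34197721 to 34201454 of the same strand with 6 exons, and Tap2 (ENSMUSG00000024339) follows 2072 bp downstream, at 34203527 to 34216321 with 12 exons. Psmb10 (ENSMUSG00000031897) lies apart on chromosome 8, at 105935735 to 105938444 on the minus strand, with 8 exons. The 3 genes on chromosome 17 sit in the MHC region, where the tables also list Rps18, H2-DMa, H2-DMb2 and H2-DMb1 between Tapbp and Psmb8, and H2-Ab1, H2-Aa, C4b and C2 downstream of Tap2. Every member overlaps another annotated gene. Psmb8 and Tap2 share part of their length with the antisense gene Gm20496, and Tap2 also with Gm15821. Psmb10 lies with all of its 2710 bp inside the antisense gene Gm16156. Tapbp shares part of its length with Zbtb22 on its own strand and with Gm19412 on the other. Of the stretches of 31 bases in the annotated transcripts, 0% were shared with transcripts of another gene for Psmb10, 13.7% for Psmb8, 14.3% for Tap2 and 26.9% for Tapbp. Strand use in the counting is not given in the sources used here, so reads of these overlaps cannot be assigned with certainty.

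The windows around the transcription starts of Psmb8, Psmb10 and Tapbp are shown. A window was found for these 3 of the 4 members, and Tap2 had none in the source used. Each runs from 250 bases before the start to 50 bases after it (RefSeq, GRCm38.p6). Capitals mark every match to 3 motifs searched on both strands, the ISRE core bound by interferon regulatory factors (GAAANNGAA), the GAS site, an interferon-gamma response motif (TTCNNNGAA) and the CCAAT box. The windows are chr17:34197945-34198244 on the plus strand for Psmb8, chr8:105938343-105938642 on the minus strand for Psmb10 and chr17:33919228-33919527 on the plus strand for Tapbp. All 3 starts lie inside the gene spans given above, which begin upstream of them.
Psmb8: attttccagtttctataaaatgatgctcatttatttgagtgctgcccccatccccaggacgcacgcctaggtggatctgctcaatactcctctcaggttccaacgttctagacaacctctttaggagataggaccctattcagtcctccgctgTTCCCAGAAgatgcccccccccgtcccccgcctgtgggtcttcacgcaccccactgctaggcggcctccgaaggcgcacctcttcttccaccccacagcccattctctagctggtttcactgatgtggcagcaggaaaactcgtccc
Psmb10: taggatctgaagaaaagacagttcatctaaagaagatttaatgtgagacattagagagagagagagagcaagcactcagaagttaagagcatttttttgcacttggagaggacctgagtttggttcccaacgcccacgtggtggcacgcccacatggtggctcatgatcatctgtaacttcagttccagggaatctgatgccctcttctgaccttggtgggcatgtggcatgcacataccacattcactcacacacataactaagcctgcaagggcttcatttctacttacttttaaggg
Tapbp: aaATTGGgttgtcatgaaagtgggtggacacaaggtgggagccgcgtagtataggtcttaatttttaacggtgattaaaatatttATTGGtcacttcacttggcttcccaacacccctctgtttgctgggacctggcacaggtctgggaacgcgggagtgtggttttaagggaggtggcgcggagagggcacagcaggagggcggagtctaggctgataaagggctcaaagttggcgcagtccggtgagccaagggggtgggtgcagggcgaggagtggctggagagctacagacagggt
The Psmb8 window held 1 match to the GAS letters, starting 97 bases before the start, and 8.3% of all 32851 windows of this length held at least 1. The Tapbp window held 2 CCAAT matches, both on the opposite strand, and 37.4% of all windows held at least 1. Neither the Psmb8 nor the Tapbp window held the ISRE letters, which were found in 8.56% of all windows, and the Psmb10 window held none of the 3. A match describes letters in the window and was not tested for binding.

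Psmb8 had the widest log2 difference of the 4 between old and 3HB mice. Its normalized value was 14.7, 10.71 and 12.63 in the young mice, 30.65, 16.12 and 34.03 in the old mice and 12.97, 14.33 and 12.57 in the 3HB mice. Old mice 1 and 3 stood far above the 6 mice of the other groups, and old mouse 2 lay just above them, so the old mice overlapped with neither group. The means were 12.7 ± 2.00 (young), 26.9 ± 9.52 (old) and 13.3 ± 0.923 (3HB), each with its SD over 3 mice. The mean of the old mice was 2.12 times that of the young mice, and the mean of the 3HB mice was 0.493 times that of the old mice. On the scale of log2(value + 1), Psmb8 was higher in old than in young mice by 0.97 (standard error 0.35) and differed between 3HB and old mice by -0.902 (standard error 0.33). The exact permutation test (two-sided) gave p = 0.1 for old against young, the smallest p that 3 mice against 3 allow, and 0.132 after Benjamini-Hochberg adjustment over the 489 genes. Every gene at this smallest p has that adjusted value. The same old mice had entered the listing of Psmb8, so this test is not independent of the selection. For 3HB against old, Psmb8 had been selected on this contrast, and the difference is a description.

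Psmb10, the other inducible catalytic subunit, showed a narrower range. It was at 19.99, 20.37 and 12.14 in the young mice, 25.21, 19.59 and 24.85 in the old mice and 17.42, 16.04 and 13.48 in the 3HB mice. All 3HB mice were below all old mice, while old mouse 2 fell below both young mice 1 and 2, and the young and old mice overlapped. The means were 17.5 ± 4.65 (young), 23.2 ± 3.15 (old) and 15.6 ± 2.00 (3HB), each with its SD over 3 mice. The log2 difference was -0.54 (standard error 0.15) between 3HB and old mice, the contrast that had selected the gene. Between old and young mice it was 0.41 (standard error 0.26), which did not exceed the spread between mice (two-sided exact permutation test, p = 0.3, adjusted over the 489 genes 0.35). That difference rested on young mouse 3, the lowest of the 9 mice, and was 0.185 without it. It was 0.179 when the mice were scaled on the genes listed for 3HB alone. The old mice had also entered the listing of Psmb10, so its test of old against young is not independent of the selection.

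The gene of tapasin, Tapbp, was at 27.6, 36.55 and 26.66 in the young mice, 46.37, 35.65 and 45.42 in the old mice and 29.72, 35.5 and 27.35 in the 3HB mice. The old and 3HB mice were kept apart only by the small step from 3HB mouse 2 to old mouse 2, whereas young mouse 2 lay above old mouse 2. The means were 30.3 ± 5.46 (young), 42.5 ± 5.93 (old) and 30.9 ± 4.19 (3HB), each with its SD over 3 mice. Its log2 difference was -0.45 (standard error 0.16) for 3HB against old, where it had been selected. For old against young it was 0.48 (standard error 0.18), and with the overlap of these groups the two-sided exact permutation test gave p = 0.2 (adjusted over the 489 genes 0.242). This difference was 0.24 when the mice were scaled on the genes listed for 3HB alone. Its test shares the old mice with the contrast that listed Tapbp and is not independent of the selection.

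Tap2, a subunit of the peptide transporter, had been listed for age instead. The young mice were at 9.26, 7.52 and 9.29, the old mice at 18.08, 13.43 and 24.52 and the 3HB mice at 11.19, 15.83 and 10.24. Every old mouse lay above every young mouse, and 3HB mouse 2 lay above old mouse 2, so the old and 3HB mice overlapped. The means were 8.69 ± 1.01 (young), 18.7 ± 5.57 (old) and 12.4 ± 2.99 (3HB), each with its SD over 3 mice, and the mean of the old mice was 2.15 times that of the young mice. The log2 difference for age was 0.99 (standard error 0.25), on the contrast that had selected the gene. For 3HB against old the difference was -0.54 (standard error 0.30), within the spread between mice (two-sided exact permutation test, p = 0.2, adjusted over the 489 genes 0.489). It was -0.33 without old mouse 3. Since the old mice had entered the listing of Tap2 for age, the test of 3HB against old is not independent of the selection.

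**Figure D1:**
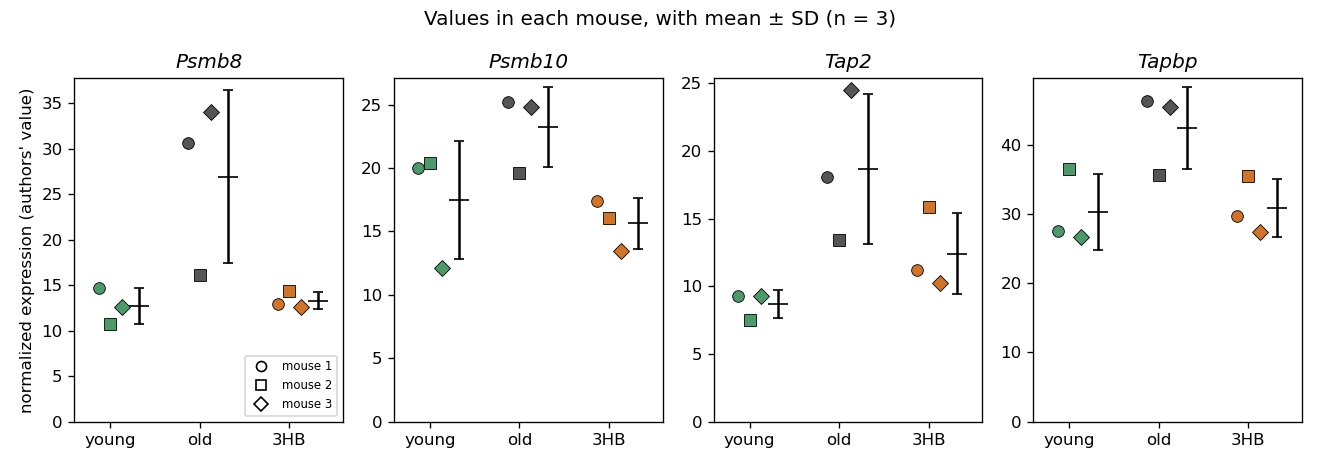
Normalized expression of Psmb8, Psmb10, Tap2 and Tapbp in each of 9 mice, in the unit of the authors' tables (vertical axes from 0), by group on the horizontal axis. Marker shapes stand for the mouse number and the bars for the mean ± SD of 3 mice. Old mouse 2 (square) is the lowest old mouse in all 4 panels, and for Psmb8 the 3HB mice sit between 12.57 and 14.33.

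The comparison of 3HB with young mice was not itself the one that listed any member, but it shared mice with those that did. The 3HB mice had entered the listing of Psmb8, Psmb10 and Tapbp, and the young mice that of Tap2, so its tests are not independent of the selection. The order of the group means was old, 3HB, young for Psmb8, Tap2 and Tapbp, and old, young, 3HB for Psmb10. On the log2 scale, 3HB and young changed places for Psmb8 without young mouse 2 (-0.036). They also did for Tapbp without 3HB mouse 2 (-0.070), young mouse 1 (-0.025) or young mouse 3 (-0.049). For 3 members the 3HB and young mice overlapped. Their log2 differences between 3HB and young mice were 0.071 for Psmb8 (standard error 0.13, p = 0.7), -0.12 for Psmb10 (standard error 0.25, p = 0.6) and 0.033 for Tapbp (standard error 0.18, p = 0.9), each by the two-sided exact permutation test. These groups did not differ beyond their spread, and 3 mice a group do not show that they were equal. Tap2, listed for its difference from the young mice, did not overlap, since its lowest 3HB mouse (10.24) was above its highest young mouse (9.29), with a log2 difference of 0.45 (standard error 0.20, two-sided exact permutation test, p = 0.1). Without 3HB mouse 2 this difference was 0.28. That of Psmb10 was -0.0037 without young mouse 2 and -0.355 without young mouse 3, where its groups no longer overlapped. With that omission the share of all 489 genes without overlap also went from 73.0 to 83.0%. Adjusted by the Benjamini-Hochberg method over all 489 genes, the p-values of this comparison were 0.72, 0.63, 0.91 and 0.14 for Psmb8, Psmb10, Tapbp and Tap2 (exact permutation test).

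**Figure D2:**
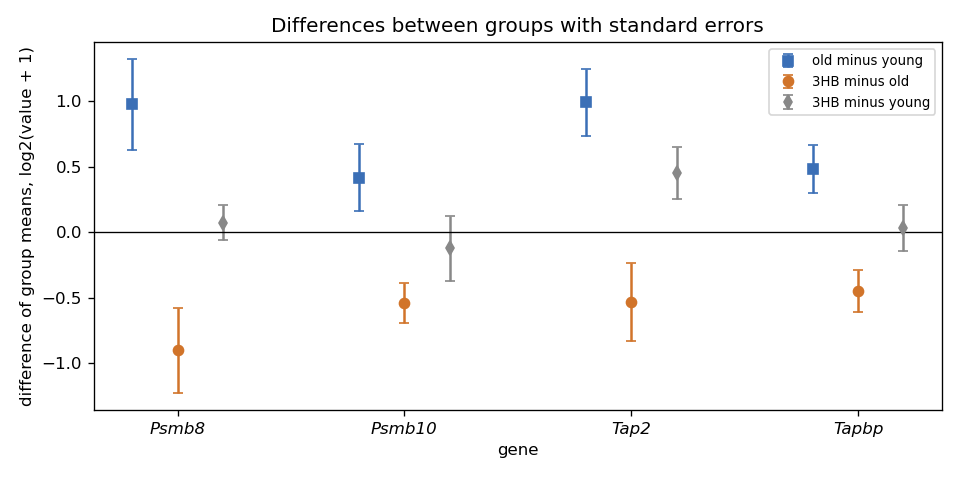
Differences between group means on the log2(value + 1) scale (vertical axis) for the 4 genes (horizontal axis), with standard errors as bars (n = 3 mice a group). Squares give old minus young, circles 3HB minus old and diamonds 3HB minus young, and the diamonds of Psmb8, Psmb10 and Tapbp lie within 1 standard error of 0 while that of Tap2 lies above it at 0.45.

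The counts of members were read against the same counts over the tables. For 3HB against old, 3 of 3 members of that table were lower without overlap, but these had been selected on the contrast, and 51.3% of the 113 listed genes did the same. For old against young, 1 of these 3 members (Psmb8) was higher in old mice without overlap, against 9% of the 100 genes listed for 3HB alone. That count uses the same old mice as the contrast that had selected these genes. Of those 100 genes, 75 had the higher mean in old mice, with a median log2 difference of 0.20, and all 3 members were higher, with a median of 0.48. Tap2 was among the 65.6% of genes listed for age that were higher in old mice without overlap, again by selection. It was not among the 4.26% of the 376 genes listed for age alone that were lower in 3HB than in old mice without overlap. For 3HB against young, 1 of 4 members was higher without overlap, where 54.2% of all 489 genes were, and 0 of 4 were lower without overlap, where 18.8% were. Both differences that involve the old mice use the same 3 animals, so a high value in those animals raises one and lowers the other.

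Within the 3HB table, 70 of the 113 genes were lower with 3HB, and by the size of that difference Psmb8 ranked 16th of them, Psmb10 39th and Tapbp 53rd. Within the age table, 271 of the 389 genes were higher in old mice, and Tap2 ranked 213th of them. These ranks are on the contrasts that had selected the genes.

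The old mice differed among themselves. Among them, old mouse 2 was lowest in 4 of 4 members, and in 36.3% of the other 485 genes. In the 67 other genes listed for 3HB and lower with it, the share was 44.8%. For Psmb8 the highest old mouse was 2.11 times the lowest, and for Tap2 1.83 times, against 1.29 times for Psmb10 and 1.30 times for Tapbp. Among 3HB mice, the spread of Psmb8 was narrow, with the highest 1.14 times the lowest, while that of Tap2 was 1.55 times. 3HB mouse 3 was the lowest of its group in 4 of 4 members, in 39.2% of the other genes and in 43.3% of those 67. Without old mouse 2, which as the lowest old mouse in each member could only reduce overlap when left out, 4 of 4 members were free of overlap between old and young mice in place of 2. The share over all 489 genes, in either direction, went from 75.9% to 81.0% with the same omission. Between 3HB and old mice it was 4 of 4 members in place of 3, and the share of all genes went from 29.7% to 41.7%. The log2 difference of Psmb8 was then 1.29 for old against young and -1.22 for 3HB against old.

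Ratios of members within a mouse do not depend on how that mouse was scaled. The 6 ratios gave 18 comparisons between groups, of which 3 were without overlap. The log2 ratio of Psmb8 to Tapbp was -0.909, -1.77 and -1.08 in the young mice, -0.597, -1.15 and -0.417 in the old mice and -1.20, -1.31 and -1.12 in the 3HB mice. Old mice 1 and 3 had the highest ratios, and the groups overlapped in old mouse 2. The log2 ratio of Psmb10 to Tapbp was -0.879, -0.864 and -0.87 in the old mice, but ran from -1.135 to -0.465 in the young mice and from -1.15 to -0.771 in the 3HB mice, so the narrow range of the old mice was not shared by the other groups. The log2 ratio of Tap2 to Tapbp was -1.58, -2.28 and -1.52 in the young mice, -1.36, -1.41 and -0.889 in the old mice and -1.41, -1.17 and -1.42 in the 3HB mice. All 6 mice of 20 months were above all 3 young mice in this ratio, with a mean difference from young mice of 0.57 for old and 0.46 for 3HB mice, though Tap2 had been selected on old against young. The ratio of Psmb8 to Tap2 was lower in every 3HB mouse than in every young mouse, with means of 0.12 and 0.54, and these were the 3 comparisons without overlap. The ratios of Psmb8 to Psmb10 and of Psmb10 to Tap2 overlapped in every comparison, with mean differences of 0.59 and -0.63 between old and young mice.

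The pathway around the members was looked up in gene lists, of which only genes in a table have values, and a gene without a row is not thereby shown to be unchanged. Of 8 genes for the immunoproteasome and the proteasome activator, Psmb8 and Psmb10 alone were listed, and 0 of 27 subunits of the standard proteasome were. Psmb9, the remaining inducible subunit, and Tap1, the partner of Tap2, had no row in either table and are not analysed here. Nor had Ifngr1, a chain of the interferon-gamma receptor, or Irf1 and Nlrc5, which activate class I genes. Of 10 genes for peptide transport and loading, Tapbp and Tap2 alone were listed. The KEGG annotation in the tables gave the same picture, with 2 genes under proteasome in the 3HB table, both members and both lower. Under antigen processing and presentation, KEGG placed 8 genes of the 3HB table, of which 7 were lower, and 16 genes of the age table, of which 13 were higher in old mice. Over the whole tables, 70 of 113 were lower with 3HB and 271 of 389 were higher in old mice.

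The class I heavy chains, which bind the peptides that the members supply, were listed in 9 of 21 cases. For age, 7 of these 9 were higher in old mice and 2 lower (H2-T22 and H2-T23). H2-Q4 averaged 12.8 ± 0.941 in the young, 26.2 ± 5.75 in the old and 17.7 ± 1.90 in the 3HB group (SD, n = 3 each). H2-T22 ran the other way and stayed low in 3HB mice, at 51.2 ± 3.88, 10.5 ± 0.576 and 11.7 ± 0.368 in the same order. H2-T10 rose with age and stayed high in 3HB mice, at 0.92 ± 0.432, 26.2 ± 2.03 and 22.8 ± 1.43. Of the 9, 7 were lower in 3HB than in old mice, with a median log2 difference of -0.56 over the 9, and that of H2-T10 was -0.196. Heavy chain genes resemble each other closely, and reads could be split between copies, so their single values are uncertain. The class II list had 7 of 14 genes in a table, with 6 of 6 higher in old mice in the age table and 4 of 4 lower in the 3HB table, all without overlap. Of 26 genes induced by interferon, 11 were listed for age, all higher in old mice and 8 without overlap, and 5 for 3HB, all lower with 3HB and 1 without overlap. Over the whole tables, 65.6% of genes were higher in old mice without overlap and 51.3% were lower with 3HB without overlap, and all these genes had been selected on those contrasts. Among the 5 was Ubd, which encodes a ubiquitin-like modifier. All 11 had their lowest old value in old mouse 2, as did all 7 class II genes and all 4 members, whereas the class I heavy chains had it in old mouse 2 in 3 of 9 cases and in old mouse 3 in 5.

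**Figure D3:**
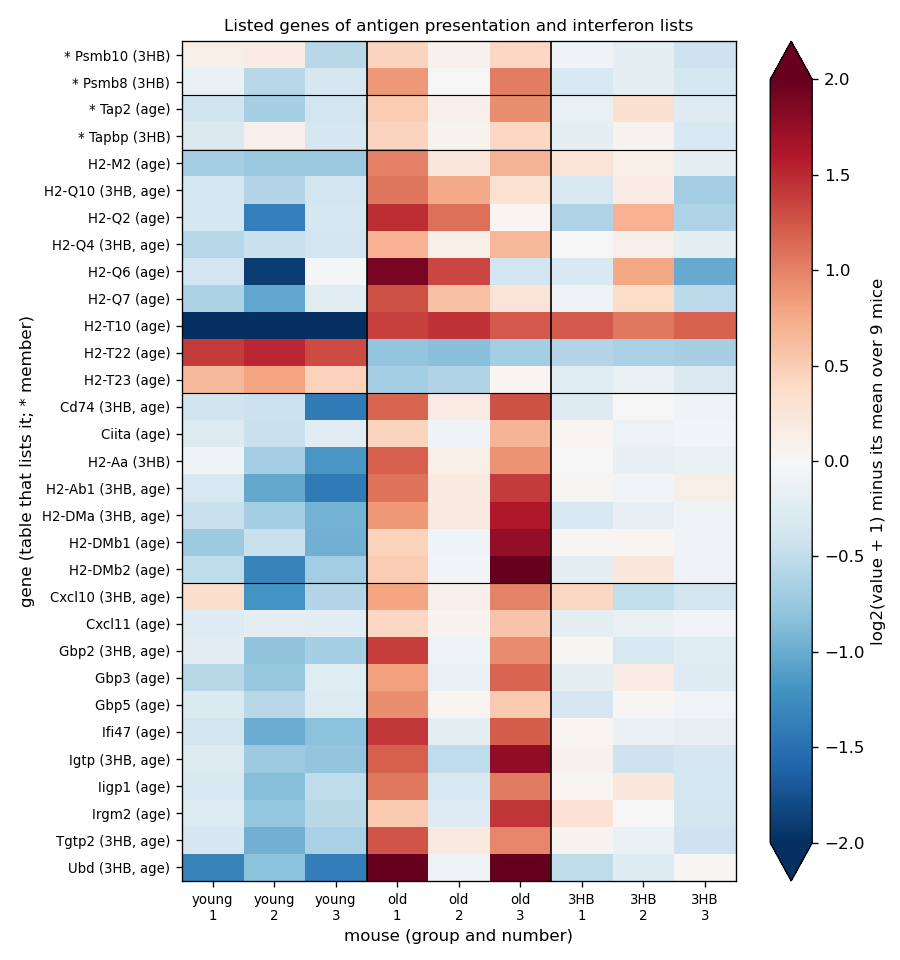
Each row is a listed gene of the proteasome, loading, class I, class II and interferon lists (separated by horizontal lines), each column a mouse, and the colour log2(value + 1) minus the gene's mean over 9 mice, cut at 2. Stars mark the 4 members and the brackets name the table that lists the gene. Old mice 1 and 3 are the darkest red columns in the members, class II and interferon rows, while H2-T22 and H2-T23 are red in young mice.

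The genes whose course over the 9 mice was nearest to that of the members were C2, Ciita, H2-Q4, Lsm7 and Hnrnpd. Nearness was the root mean square distance between log2 profiles centred on their means, over 446 genes with a highest group mean of at least 1. It was 0.12 for C2, a complement protease whose gene lies in the same MHC region, and 0.17 for Ciita, the master activator of class II genes. H2-Q4 followed at 0.18, and Lsm7 and Hnrnpd, which encode RNA-binding proteins, at 0.196 and 0.198. The median distance over the 446 genes, which include genes that changed the other way, was 0.76. C2, Lsm7 and Hnrnpd were listed for 3HB, Ciita for age and H2-Q4 for both. A course like that of the members was thus partly fixed by the listing. The members themselves were 0.16 (Tapbp) to 0.21 (Psmb10) from their own mean, which each of them helps to form. C2 was at 26.24, 28.28 and 20.63 in the young mice, 42.72, 33.15 and 47.13 in the old mice and 23.68, 35.95 and 22.86 in the 3HB mice. Its high mice were those of Tap2 and Tapbp, namely old mice 1 and 3 and, within its group, 3HB mouse 2. Ciita values were low, from 0.26 to 1.76, so its distance is least certain, and it was not among the nearest 5 with a pseudocount of 0.1, where 4 of the 5 were kept.

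**Figure D4:**
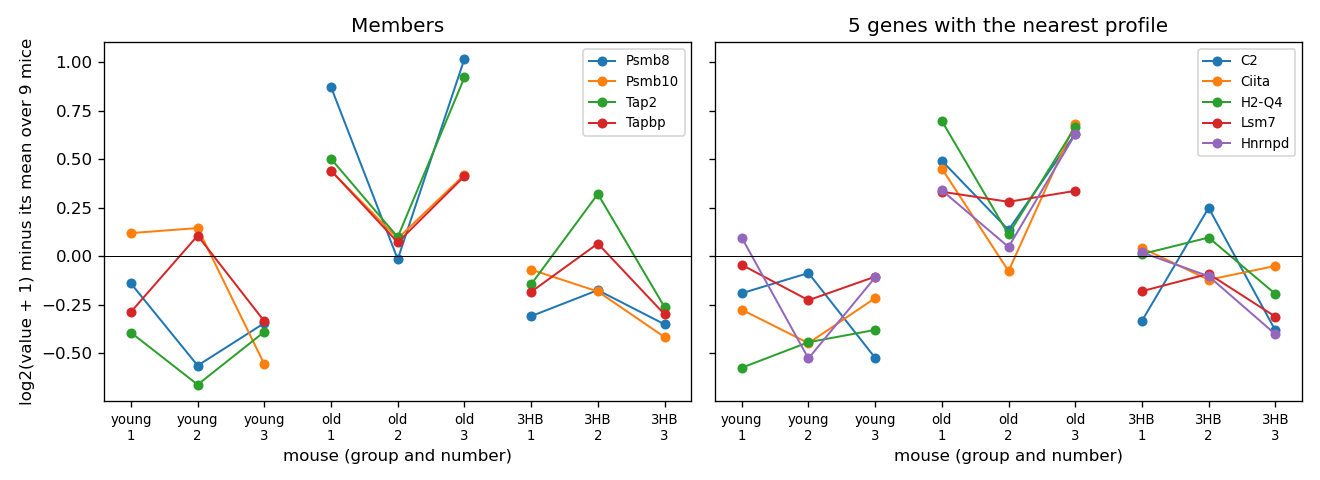
Log2(value + 1) minus its mean over 9 mice (vertical axis) in each mouse (horizontal axis), for the 4 members on the left and the 5 genes with the nearest course on the right. Lines join the mice of a group and imply no order. In both panels old mice 1 and 3 lie above 0, and C2 at a distance of 0.12 follows the members most closely.

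Whole kidney holds many cell types, and in bulk tissue fewer cells of a type cannot be told apart from less RNA per cell. Of 34 leukocyte markers, 5 were in a table, all of them in that for age (Cd8a, Cd79a, Mzb1, Jchain and Lyz2), and general leukocyte genes such as Ptprc were not among them. Their summed value ranged from 9.98 to 24.25 among young, from 97.43 to 386.72 among old and from 249.64 to 270.06 among 3HB mice. Jchain, the joining chain of secreted antibodies, gave most of the sum in every old and 3HB mouse. The sums of the 3HB mice lay within the range of the old mice, and both groups lay above the young mice. Lyz2, a lysozyme of macrophages, was at 72.01, 22.92 and 29.95 in the old mice and 34.25, 42.87 and 37.33 in the 3HB mice, so that the old mice held both the highest and the lowest of these 6 values. Among the old mice, Lyz2 was lowest in old mouse 2, as were all 4 members, and its order over these 3 mice was that of Psmb10 and Tapbp. The rest of the 5 markers, Cd8a, Cd79a, Mzb1 and Jchain, were instead all lowest in old mouse 3. Jchain was highest in old mouse 2 (317.39) and lowest in old mouse 3 (60.43), the reverse of the order of Psmb8 and Tap2. The part of leukocyte numbers in the members' values was not tested. Cd8a alone of the 5 had a lower mean in old mice. As for the tissue, which the methods text calls muscle and the labels kidney, 1 of 11 kidney markers was listed (Lrp2, from 68.59 to 154.52 in the 9 mice), against 0 of 6 muscle markers and 0 of 4 endothelial markers. With only listed genes in the tables, these counts do not check the tissue.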

How the data were processed

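RNA from kidneys of 3 young, 3 old and 3 3HB mice was sequenced as paired reads of 150 bp. The authors deposited 2 tables with a normalized expression signal per gene and mouse. Whether it is TPM or FPKM is not stated. The submitters' processing notes name CASAVA, HISAT2, StringTie and GRCm38, without versions. Of the 489 gene identifiers, 479 are in GENCODE release 21, so the annotation used was another release. The tables appear to hold called genes only, and the rule of listing, with its test and threshold, is not given in the sources used here. Values are rounded to 2 decimals, and low ones were not searched for read steps. Sequencing depth is therefore unknown, and precision rests on the 3 mice of each group.

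The members and lists were chosen with earlier results of these data known. Differences are those between group means of log2(value + 1), which understates changes of low genes, with standard errors from the group SDs. Two-sided exact permutation tests covered the 20 ways to divide 6 mice. Without unlisted genes, neither a fit across the transcriptome nor a new normalization was possible. The p-values adjusted over the 489 genes cover a selected set. Named genes are the members, the 5 nearest by profile and listed genes of 7 pathway and 7 marker lists, and the count of 1 pathway list is not reported here. List genes without a row, genes overlapping a member and listed neighbours such as Rps18 and C4b were named in addition, outside that rule and after the values were seen. Alternatives covered the pseudocount (0.1), medians, scaling, the replicate number and each mouse left out. The statistics were tested on simulated data. Scripts ran under Python 3.11.15 with scipy 1.17.1, numpy 2.4.6, pandas 2.3.3 and, for plots, matplotlib 3.10.9.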

Additional observations from a re-analysis of the deposited data

How the results depend on the processing

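For 3HB against young, the 4 members kept the direction of the main value in 36 of 40 alternatives. No alternative turned a direction in the other comparisons, but for many this was fixed beforehand, since the replicate block returns the main value and leaving out a mouse cannot turn a difference between groups that do not overlap. Leaving out each mouse in turn gave, for old against young, 0.78 to 1.29 for Psmb8, 0.18 to 0.54 for Psmb10, 0.78 to 1.19 for Tap2 and 0.398 to 0.62 for Tapbp on the log2 scale. For 3HB against old the ranges were -1.22 to -0.71, -0.65 to -0.44, -0.74 to -0.33 and -0.57 to -0.37 in the same order, and for 3HB against young -0.036 to 0.18, -0.35 to -0.0037, 0.28 to 0.57 and -0.07 to 0.17. Members without overlap numbered 2 to 4 for old against young, 3 to 4 for 3HB against old and 1 to 2 for 3HB against young, with 2 in the last case without young mouse 3. Overlap is easier to avoid with 2 mice in a group, and over all 489 genes the shares without overlap ran from 77.3 to 85.3%, 35.4 to 41.7% and 76.3 to 83.0% under the same omissions, against 75.9, 29.7 and 73.0% with all mice. Scaling on the genes listed only for 3HB lowered the difference between old and young mice in all 4 members, and that of Tapbp became 0.24. The cause was not tested, and such genes are themselves selected on the old mice. For 3HB against young no such scaling was defined. No clear pairing by replicate number was seen, as same-numbered deviations correlated from -0.24 to 0.16 across genes. For old against young, mice 1 (0.161) and 3 (0.132) correlated best with their own number. Deviations from means of 3 mice, over listed genes only, cannot exclude a pairing. With the replicate number as a block the differences are the same (0.97 for Psmb8 in old against young), and the smallest p is 0.25 by an exact sign-flip permutation test, which says nothing about stability. With genes whose highest group mean was under 1 left out, the background shares of 51.3, 9, 65.6, 4.26 and 54.2% became 51.3, 9, 65.7, 3.86 and 53.8%. Without the filter used for the nearest genes, 3 of the 5 nearest genes were kept. Matching lists by identifier gave the same counts. All members have values above 7, and an unknown depth limits what a low value such as that of Ciita shows.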
